A study of Homo sapiens with 9 samples.

Results

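HSPB8 and the cytosolic heat shock proteins that work with it were followed in human keratinocytes with a knockout or an overexpression of SGPL1, the gene of sphingosine-1-phosphate lyase. The set holds 10 of the 60671 genes listed in the count files: the small heat shock proteins HSPB8, HSPB1 and CRYAB, the co-chaperone BAG3, and HSPA1A, HSPA1B, HSPA8, HSPH1, DNAJB1 and HSP90AA1 of the HSP70 and HSP90 system. The genes were chosen by name with results from the same 9 libraries known, so their values are a description and carry no test. All 10 passed the filter on low counts, which left 13390 genes.

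The cells were N/TERT, an established human line of epidermal keratinocytes made immortal with telomerase, and they received no treatment. KO cells carried a CRISPR knockout of SGPL1, OE cells overexpressed SGPL1, and Control cells are given as wild type (WT), with 3 libraries in each group. The lyase degrades sphingosine-1-phosphate, a signalling lipid, and the series concerns the scaling skin disease of people who lack it. The libraries are called biological replicates, but the number of clones behind a group, the edited site and the promoter that drove SGPL1 are not given in the sources used here, so the spread reported below is that between these libraries. In CPM, counts scaled to a common library size, SGPL1 had 58.8, 58.3 and 61.6 in KO libraries, 1133, 1104 and 929 in OE libraries and 83.9, 95.1 and 98.3 in Control libraries. KO was below and OE above Control, although counts over whole genes do not show the edit itself.

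Heat shock proteins are chaperones that bind unfolded proteins and help them to refold or to be degraded. Small heat shock proteins hold unfolding proteins in a soluble state without using ATP, J-domain proteins such as DNAJB1 hand them to HSP70, nucleotide exchange factors such as BAG3 and HSPH1 make HSP70 let go, and HSP90 completes the folding of kinases and receptors. HSPB8 is bound by BAG3, and the pair joins HSP70 to send damaged proteins, filamins among them, to autophagy, a route best known from muscle. Heat shock factor 1 (HSF1) switches many of these genes on by binding heat shock elements, inverted repeats of the unit GAA in their promoters.

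To show which of the 10 genes share such an element, the 250 bases upstream of each RefSeq transcript start (GRCh38.p14) were searched for GAANNTTC and TTCNNGAA. Each pattern reads the same on both strands, and matches can overlap. Such an element of 2 units occurred in 11.6% of 35116 promoter windows of the same length, and an element of 3 units, which adds NNGAA to GAANNTTC or NNTTC to TTCNNGAA, in 0.441%. Among the genes followed here, 9 had promoter entries, and 7 of them held an element of 2 units at 1 of their starts. The stretches around the matches of 6 genes are shown 5′ to 3′ on the strand of the gene, with the matches in capitals, because these genes had an element yet differed in how their transcripts varied.
HSPB8, chr12:119178818-119178875, plus strand: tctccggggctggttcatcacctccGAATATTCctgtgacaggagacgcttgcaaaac
HSPA1A, chr6:31815412-31815469, plus strand: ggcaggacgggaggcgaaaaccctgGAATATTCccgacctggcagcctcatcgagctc
HSPA1B, chr6:31827608-31827665, plus strand: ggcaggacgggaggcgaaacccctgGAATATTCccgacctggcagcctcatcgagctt
HSPB1, chr7:76302466-76302523, plus strand: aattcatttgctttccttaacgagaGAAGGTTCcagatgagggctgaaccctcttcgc
DNAJB1, chr19:14518412-14518499, minus strand: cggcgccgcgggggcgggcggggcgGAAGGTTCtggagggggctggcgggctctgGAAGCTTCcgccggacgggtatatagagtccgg
HSP90AA1, chr14:102087080-102087157, minus strand: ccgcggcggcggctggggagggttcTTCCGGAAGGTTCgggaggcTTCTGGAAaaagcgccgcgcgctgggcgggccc

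HSPB8, HSPA1A and HSPA1B held the same 8 bases, GAATATTC, which began 88, 106 and 105 bases before their RefSeq starts. The 250 bases searched were 93.6% identical between HSPA1A and HSPA1B, so the matches of this pair are not independent. HSPB1 had 1 element. HSP90AA1 had 3 at 1 of its 2 starts, of which 2 overlapped to form an element of 3 units, and DNAJB1 had 2 at 1 of its 3 starts. HSPA8 had 4 elements of 2 units and 2 of 3 units. The starts with elements of HSPA8, HSPB8, HSP90AA1 and DNAJB1 lie inside the spans that the count files give to these genes. The HSPA8 stretch lies in an annotated exon and is not shown. BAG3 and HSPH1 held neither pattern in this window, and CRYAB is named only. A match says only that these letters are present.

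The plot of each gene by library shows that the 3 small heat shock proteins and BAG3 separated the groups in different ways. HSPB8 was highest in Control, lower in KO and lowest in OE. CRYAB was highest in KO and lowest in OE. HSPB1 was lowest in OE, and BAG3 was lower in KO and higher in OE than in Control. In values given with ±, the error is the SD over 3 libraries for a level and the SE of the fit for a log2 fold change, and in bulk RNA fewer cells of a type and less RNA per cell cannot be told apart.

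**Figure D1:**
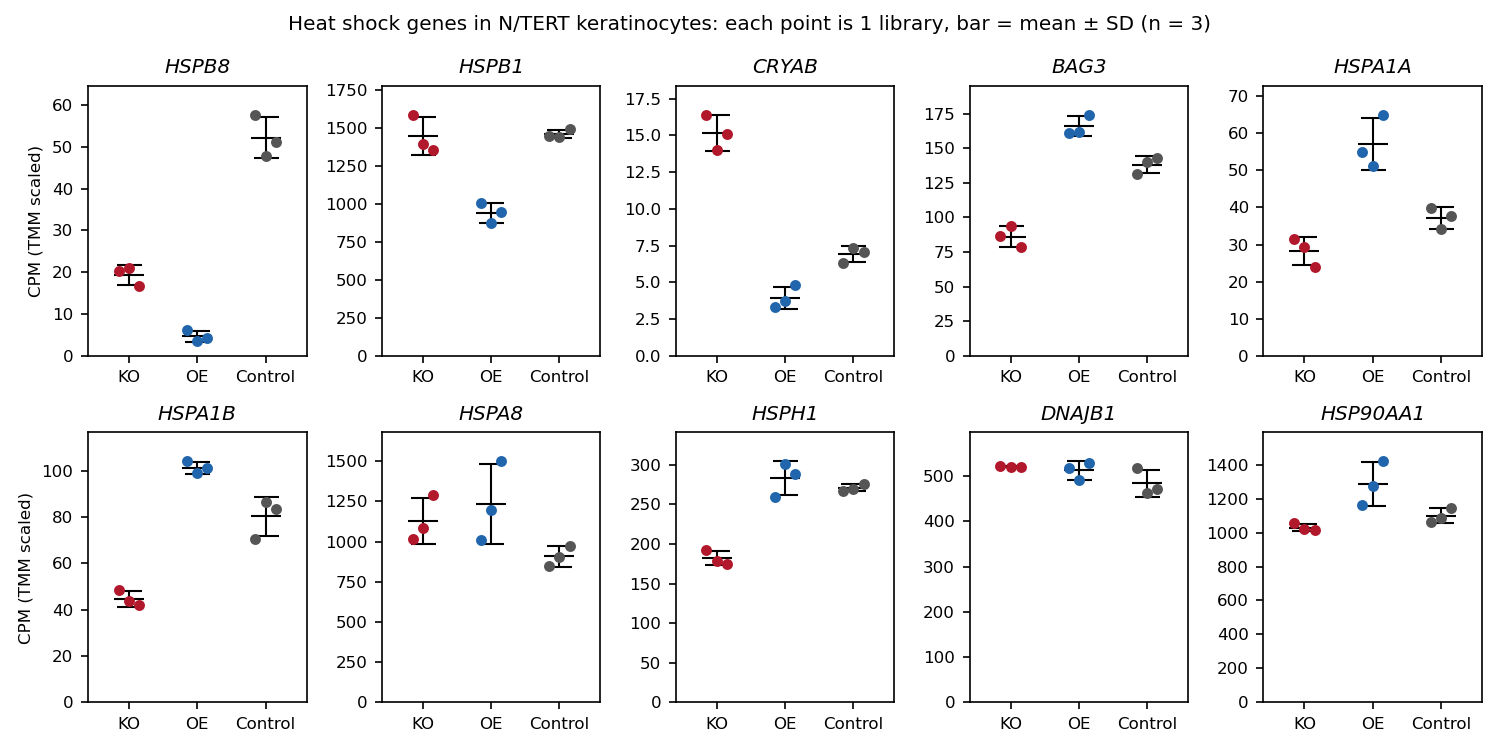
Scaled CPM (y axis, from 0) of the 10 heat shock genes in KO, OE and Control libraries (x axis); each point is 1 library and bars give mean ± SD of 3 libraries. HSPB8 was highest in Control, CRYAB was highest in KO, and BAG3, HSPA1A, HSPA1B and HSPH1 were lowest in KO.

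HSPB8 (ENSG00000152137, GRCh38 chr12:119171555-119224855, plus strand), the small heat shock protein that BAG3 binds, had 20.4, 20.9 and 16.7 CPM in the KO libraries, 6.09, 3.63 and 4.23 CPM in the OE libraries and 57.6, 47.9 and 51.1 CPM in the Control libraries. The 3 groups did not overlap, and OE was the lowest. KO cells averaged 19.3 ± 2.25 CPM against 52.2 ± 4.94 CPM in Control cells. This was 2.70-fold lower, a log2 fold change of -1.42 ± 0.15. OE cells averaged 4.65 ± 1.28 CPM against the same Control cells, a level 11.2-fold lower (log2 fold change -3.50 ± 0.17). KO cells thus had 4.16-fold more HSPB8 transcript than OE cells, and both edited groups lay below Control although SGPL1 was altered in opposite directions. The OE value rests on 36 to 58 counts a library, against 455 to 528 in Control. HSPB8 overlaps a processed pseudogene on its own strand that had 28 counts over all libraries. It also overlaps antisense genes with 0 and 3 counts. Leaving out each library in turn gave log2 fold changes between -1.49 and -1.34 for KO and between -3.72 and -3.37 for OE. The 34 other tested genes within 2 megabases of HSPB8 had median log2 fold changes of 0.15 in KO and -0.08 in OE against Control.

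HSPB1 (ENSG00000106211, chr7:76302673-76304295, plus strand), known as HSP27 and abundant in the upper epidermis, had 1583, 1395 and 1350 CPM in KO libraries, 1005, 873 and 943 CPM in OE libraries and 1445, 1438 and 1490 CPM in Control libraries. The OE libraries lay below all others, while KO and Control overlapped. Its log2 fold change was -0.63 ± 0.08 in OE, a level 1.55-fold lower than in Control. In KO it was -0.01 ± 0.08 as fitted and -0.22 ± 0.08 once a trend of the KO libraries with exon length and GC content was removed. As fitted it lay between -0.09 and 0.03 when single libraries were left out.

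CRYAB (ENSG00000109846, chr11:111908564-111923722, minus strand), which encodes alpha-B-crystallin, a small heat shock protein of lens and muscle, had 16.4, 14 and 15.1 CPM in KO libraries, 3.32, 3.73 and 4.81 CPM in OE libraries and 6.33, 7.37 and 7.08 CPM in Control libraries. The groups did not overlap, and their order differed from that of HSPB8: KO was highest, Control intermediate and OE lowest. The KO level was 2.19-fold that of Control (log2 fold change 1.13 ± 0.21), and the OE level was 1.75-fold lower than Control (-0.79 ± 0.23). These are low counts, 89 to 136 in KO libraries, 30 to 66 in OE libraries and 58 to 70 in Control libraries. CRYAB overlaps HSPB2 and C11orf52 on the opposite strand, and those genes had 0 and 5 counts over all libraries.

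BAG3 (ENSG00000151929, chr10:119651380-119677819, plus strand), the exchange factor that ties HSPB8 to HSP70, had 86.4, 93.5 and 78.5 CPM in KO libraries, 161, 162 and 174 CPM in OE libraries and 131, 140 and 143 CPM in Control libraries. The 3 groups were separate, with OE highest and KO lowest. The log2 fold changes against Control were -0.68 ± 0.09 in KO, 1.60-fold lower, and 0.27 ± 0.08 in OE, 1.20-fold higher. Per kilobase of exon, the ratio of HSPB8 to BAG3 was 0.180, 0.170 and 0.163 in KO libraries, 0.0288, 0.0172 and 0.0185 in OE libraries and 0.335, 0.262 and 0.274 in Control libraries. The ratio was thus below Control in both edited groups. In KO both transcripts were lower, and in OE a lower HSPB8 stood against a higher BAG3.

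The stress-inducible HSP70 pair followed BAG3. HSPA1A (ENSG00000204389, chr6:31815543-31817946, plus strand) had 31.6, 29.2 and 24.0 CPM in KO libraries, 55.0, 51.2 and 64.9 CPM in OE libraries and 39.9, 34.1 and 37.6 CPM in Control libraries. HSPA1B (ENSG00000204388, chr6:31827738-31830254, plus strand) had 48.6, 43.6 and 42.1 CPM in KO libraries, 104, 98.8 and 101 CPM in OE libraries and 70.6, 86.7 and 83.6 CPM in Control libraries. For both genes every KO library lay below, and every OE library above, all Control libraries. The genes encode the same protein, and 67.1% of the 150-base stretches of the longest HSPA1A coding transcript, 150 bases being the read length, occur unchanged in another gene, chiefly HSPA1B. For HSPA1B the share was 70.0%, while the other 8 genes shared no such stretch with any transcript in GENCODE release 29. Reads that fit both genes equally are left out under the counting defaults, so the levels of both can be too low. Summing the pair does not restore these reads, and the split between the pair remains uncertain. With their counts summed, the log2 fold change was -0.68 in KO and 0.43 in OE against Control, between the values for HSPA1A (-0.39 ± 0.13 and 0.62 ± 0.12) and HSPA1B (-0.84 ± 0.10 and 0.33 ± 0.09).

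HSPH1 (ENSG00000120694, chr13:31134973-31162388, minus strand), an HSP110 protein that releases nucleotide from HSP70, had 192, 179 and 175 CPM in KO libraries, 260, 301 and 289 CPM in OE libraries and 267, 270 and 276 CPM in Control libraries. KO libraries lay below all others, and OE and Control overlapped. The log2 fold change was -0.57 ± 0.08 in KO and 0.07 ± 0.08 in OE. HSPH1 thus shared the KO side of the pattern of BAG3 and HSPA1B, with no separation on the OE side.

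HSPA8 (ENSG00000109971, chr11:123057489-123063230, minus strand), the constitutive HSP70 of the cytosol, had 1013, 1085 and 1290 CPM in KO libraries, 1008, 1195 and 1498 CPM in OE libraries and 846, 901 and 974 CPM in Control libraries. Both edited groups lay above Control, the reverse of HSPB8, but they overlapped each other and spread widely. The log2 fold change was 0.32 ± 0.11 in KO, or 0.24 ± 0.10 with the trend of length and GC removed, and 0.44 ± 0.11 in OE. Single libraries set much of the size: as fitted, it was 0.21 in KO without KO replicate 3 and 0.29 in OE without OE replicate 3. KO replicate 3 had the lowest total count and OE replicate 3 the highest of all libraries. OE replicate 3 also stood apart from the other OE libraries: chi-square divided by degrees of freedom was 11.9 and 11.1 between it and each of them, and 2.74 to 6.68 for the other pairs within a group.

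DNAJB1 (ENSG00000132002, chr19:14514769-14529770, minus strand), the J-domain partner of HSP70 known as HSP40, differed little between groups. It had 521, 520 and 520 CPM in KO libraries, 517, 490 and 529 CPM in OE libraries and 517, 463 and 471 CPM in Control libraries, and the log2 fold changes were 0.10 ± 0.07 in KO and 0.08 ± 0.07 in OE. KO libraries lay just above Control and OE overlapped it. DNAJB1 overlaps TECR, a lipid enzyme gene on the opposite strand with 15601 counts over all libraries. Strand was ignored in counting, so any reads that overlap exons of both genes are left out.

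HSP90AA1 (ENSG00000080824, chr14:102080742-102139699, minus strand), the stress-inducible HSP90 of the cytosol, had 1054, 1019 and 1016 CPM in KO libraries, 1163, 1273 and 1419 CPM in OE libraries and 1059, 1088 and 1147 CPM in Control libraries. KO libraries lay just below and OE libraries above Control. The log2 fold change was -0.09 ± 0.08 in KO, or -0.18 ± 0.07 with the trend of length and GC removed, and 0.23 ± 0.08 in OE. Per kilobase, HSP90AA1 ran at 0.333 ± 0.0171 of its paralog HSP90AB1 in KO, 0.357 ± 0.0171 in OE and 0.330 ± 0.0155 in Control. The gene overlaps WDR20 on the opposite strand, which had 2011 counts in all.

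**Figure D2:**
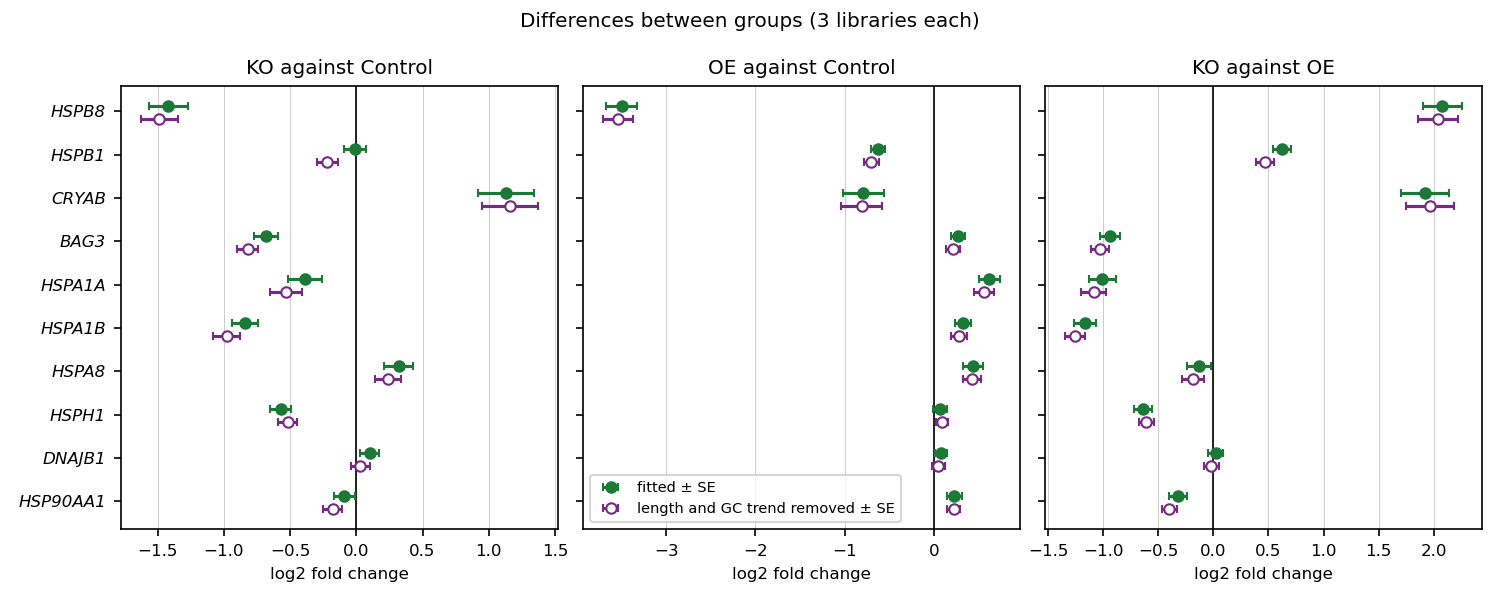
Log2 fold change (x axis) of each heat shock gene (rows) in KO against Control, OE against Control and KO against OE; filled points are fitted values, open points have the trend of exon length and GC content removed, and bars are SE. HSPB8 lay left of 0 against Control in both edited groups, at -1.42 and -3.50, and CRYAB lay at 1.13 in KO and -0.79 in OE.

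Counted with the threshold used for all genes, an adjusted p under 0.05, 2 of the 10 genes were higher in KO than in Control (CRYAB and HSPA8) and 5 were lower (HSPB8, BAG3, HSPA1A, HSPA1B and HSPH1), where 51.9% of all tested genes passed, 26.0% as higher and 25.9% as lower. With the trend of length and GC removed, 1 was higher (CRYAB) and 7 were lower, against 45.2% of all genes. HSPA8 then no longer passed (0.24 ± 0.10), and HSPB1 (-0.22 ± 0.08) and HSP90AA1 (-0.18 ± 0.07) joined the lower genes. In OE against Control, 5 were higher (BAG3, HSPA1A, HSPA1B, HSPA8 and HSP90AA1) and 3 were lower (HSPB8, HSPB1 and CRYAB), where 18.6% of all genes passed, 9.28% as higher and 9.34% as lower. In KO against OE, 3 were higher (HSPB8, HSPB1 and CRYAB) and 5 were lower (BAG3, HSPA1A, HSPA1B, HSPH1 and HSP90AA1), where 57.6% of all genes passed, 28.6% as higher and 29.0% as lower. The libraries of 9 genes in KO and 8 in OE did not overlap with Control, and over all genes this held for 59.5% in KO and 34.8% in OE. The median log2 fold change of the 10 genes was -0.24 in KO and 0.15 in OE against Control, and that of all tested genes was 0.00 and -0.01. These counts describe genes picked from these libraries, and the comparisons with Control share the Control libraries.

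Directly between the edited groups, all 3 small heat shock proteins were higher in KO than in OE. The log2 fold change of KO against OE was 2.08 ± 0.18 for HSPB8, 0.62 ± 0.08 for HSPB1 and 1.92 ± 0.22 for CRYAB. It was -0.94 ± 0.09 for BAG3, -1.17 ± 0.10 for HSPA1B, -1.01 ± 0.12 for HSPA1A, -0.64 ± 0.08 for HSPH1 and -0.32 ± 0.08 for HSP90AA1. HSPA8 (-0.13 ± 0.11) and DNAJB1 (0.02 ± 0.07) overlapped between these groups, and HSPA8 was at 0.02 without OE replicate 3.

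Levels were set beside each other per kilobase of annotated exon, the length of all exons of a gene together. That length was 4388 bases for CRYAB and 3581 for HSPB8, but their longest coding transcripts had 1119 and 2152 bases. The places of HSPB8 in every group, and of CRYAB in KO and OE, therefore hold for this length only. HSPB1 was the highest of the 10 in every group, at 889 ± 76.2 CPM per kilobase in KO, 579 ± 40.6 in OE and 898 ± 17.5 in Control. HSPA8, HSP90AA1 and DNAJB1 followed, between 133 and 254 CPM per kilobase on average, and the libraries of HSPA8 and HSP90AA1 overlapped in OE. By this length CRYAB was the lowest in every group, at 3.45 ± 0.271 in KO, 0.901 ± 0.176 in OE and 1.58 ± 0.123 in Control. HSPB8 stood ninth in every group by the same length, at 5.40 ± 0.628 in KO, 1.30 ± 0.358 in OE and 14.6 ± 1.38 in Control. Its libraries overlapped those of HSPA1A in Control and those of CRYAB in OE. Among all tested genes HSPB8 stood, by this length, at percentile 53.8 in KO, 22.5 in OE and 77.9 in Control. HSPH1 and HSPA1B overlapped in Control, changed places in OE and were apart in KO. The reads left out of HSPA1A and HSPA1B can lower the places of these genes.

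**Figure D3:**
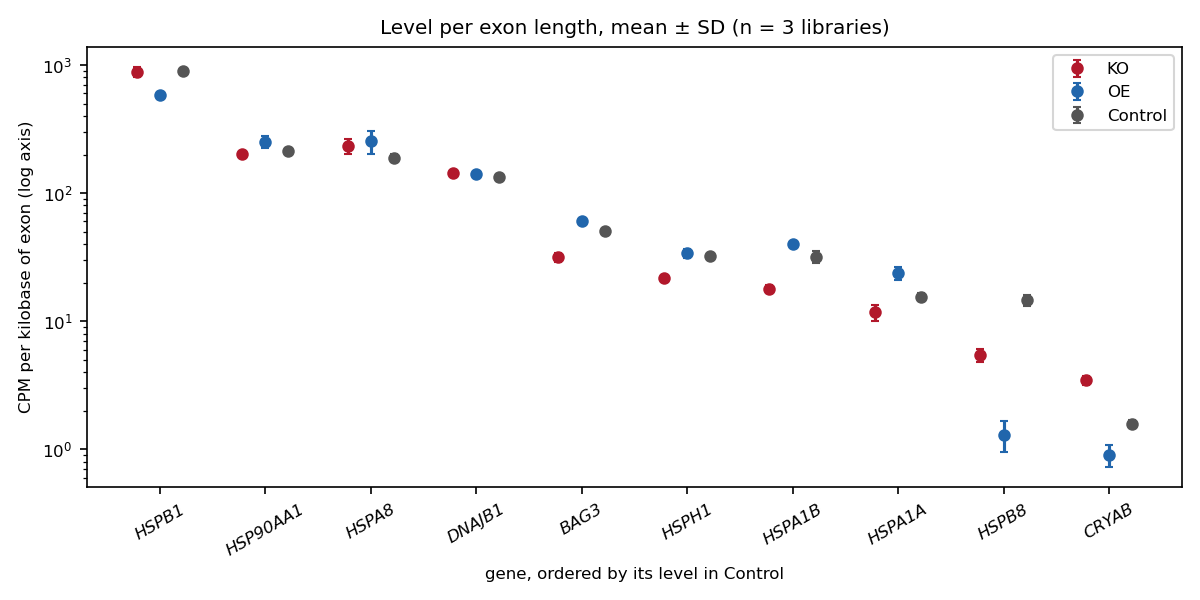
Level of each heat shock gene in CPM per kilobase of exon (y axis, log scale), ordered by its Control level (x axis), as mean ± SD of 3 libraries in KO, OE and Control. HSPB1 was highest, at 579 to 898 on average, HSPB8 ranged between 1.30 in OE and 14.6 in Control, and CRYAB was lowest by this length.

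The 10 genes together took 0.417 to 0.432% of all counts in KO libraries, 0.441 to 0.517% in OE libraries and 0.452 to 0.477% in Control libraries. Across the 9 libraries the genes most like HSPB8, by Pearson correlation of log2 CPM among genes with at least 5 CPM outside the lists, were TRIM38 (0.986), KRT13 (0.978), MTAP (0.974), CDC42EP3 (0.974) and ATOSA (0.971). KRT13, a keratin of stratified mucosa, had 7524 ± 468 CPM in KO, 5649 ± 725 CPM in OE and 9197 ± 446 CPM in Control. TRIM38, a ubiquitin ligase of innate immunity, had 44.4 ± 0.964 CPM in KO, 33.7 ± 1.68 CPM in OE and 56.8 ± 2.40 CPM in Control. Both had the order of HSPB8, over narrower ranges. Such correlations describe 3 groups of libraries that share their genotype, and among the heat shock genes followed here HSPB1 was closest to HSPB8 (0.91) and HSPA8 had the lowest value (-0.75).

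Total gene counts were 6317564 to 9410555 in KO, 8773822 to 13330479 in OE and 8730711 to 9251703 in Control. All 8 keratinocyte markers were present, with summed levels of 11975 to 12879 CPM in KO, 23478 to 24759 CPM in OE and 21294 to 21751 CPM in Control libraries. Of the 7 fibroblast markers 2 were at 0 in every library, and the list summed to 8.46 to 15.1 CPM in KO, 24.5 to 28.4 CPM in OE and 21.5 to 28.3 CPM in Control. Of the 7 melanocyte markers TYR, DCT and SOX10 were at 0 (summed level 69.2 to 76.5 CPM in KO, 60 to 71.4 CPM in OE, 89.7 to 101 CPM in Control), and nearly all of the sum was MITF, at 71.1 CPM in KO, 62.5 CPM in OE and 94.0 CPM in Control on average. Of the 7 blood, endothelial and immune markers 5 were at 0 (5.27 to 8.12 CPM in KO, 1.55 to 2.19 CPM in OE, 3.37 to 6.0 CPM in Control). Most of the keratinocyte sum was KRT5 (5850 CPM in KO, 10812 CPM in OE, 11017 CPM in Control) and KRT14 (2929 CPM in KO, 7199 CPM in OE, 5453 CPM in Control), whereas TP63 averaged 139 ± 10.3 CPM in KO, 114 ± 11.5 CPM in OE and 114 ± 6.98 CPM in Control. The lower keratinocyte sum of KO accompanied the KO differences above, and its part in them was not tested.

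A wider network around the chaperones was counted from 92 other genes in 9 lists, of which 83 could be tested. The tested genes include 4 mitochondrial chaperones, 5 heat shock factors and HSF1 modulators, and 15 genes of chaperone-assisted selective autophagy. The totals are therefore not those of cytosolic chaperones alone, and the genes of all 9 lists are called other chaperone genes for short. In KO against Control 32 rose, 19 fell and 32 did not pass, with a median log2 fold change of 0.09. With the trend of length and GC removed, 28 rose and 17 fell. In OE against Control 14 rose, 6 fell and 63 did not pass, with a median of 0.04. That split changed with the libraries used: 8 rose and 8 fell without OE replicate 3, and 8 rose and 6 fell without Control replicate 2. Without Control replicate 1, Control replicate 3 or OE replicate 2, 9 rose, and without OE replicate 1, 16 rose. Calls over all tested genes shrank too: 1242 rose in OE with all libraries, and 868 to 1216 with 1 library left out. The share that passed was 61.4% in KO and 24.1% in OE, against 51.9% and 18.6% of all genes, so counts in these lists are read beside that background. With the trend removed, the background was 6048 of 13390 genes in KO, 3091 as higher and 2957 as lower. In OE it was 2844, 1358 as higher and 1486 as lower.

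**Figure D4:**
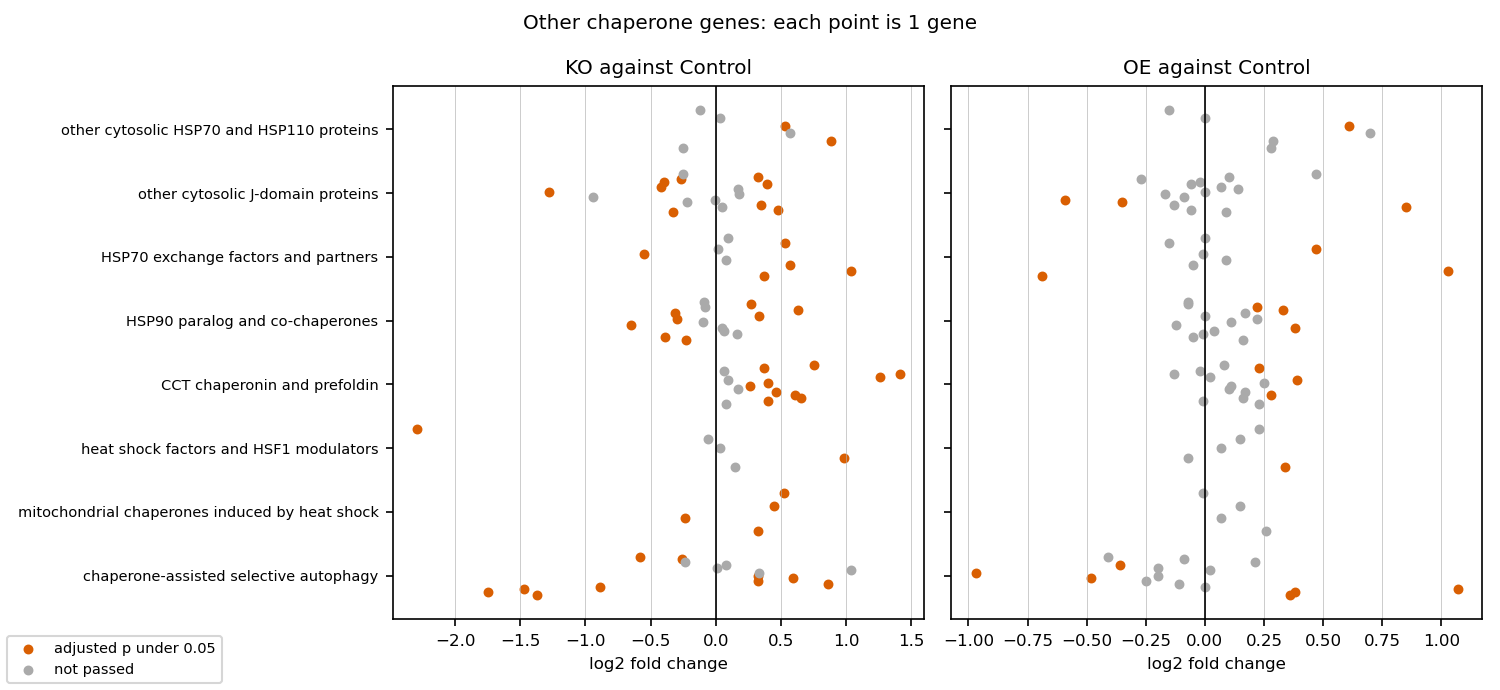
Log2 fold change (x axis) of each tested gene (points) of 8 lists of other chaperone genes (rows) in KO against Control and OE against Control; orange points passed an adjusted p under 0.05. In KO, 10 of 14 chaperonin and prefoldin genes rose, where 26.0% of all tested genes rose. With the trend of length and GC removed, 7 of the 14 rose and 1 fell. FLNA and FLNC lay left of 0 in KO and right of 0 in OE.

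Of 15 genes of chaperone-assisted selective autophagy, 4 rose, 6 fell and 5 did not pass in KO against Control, and 3 rose, 3 fell and 9 did not pass in OE against Control. With the trend of length and GC removed, 6 rose and 4 fell in KO, and 3 rose and 5 fell in OE. Of all 13390 tested genes, 6048 then passed in KO and 2844 in OE. FLNA and FLNC, filamins that crosslink actin, fell in KO and rose in OE. FLNA had 490, 514 and 528 CPM in KO libraries, 1673, 1847 and 1571 CPM in OE libraries and 1225, 1366 and 1381 CPM in Control libraries. FLNC, the filamin of muscle, had 7.71, 9.53 and 11.5 CPM in KO libraries, 67.2, 58.5 and 40.4 CPM in OE libraries and 25.9, 26.1 and 26.9 CPM in Control libraries. For both genes every KO library lay below the lowest Control library, and every OE library above the highest.

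Against Control, FLNA fell in KO by 1.37 ± 0.08 on the log2 scale (adjusted p = 8.02e-12) and rose in OE by 0.36 ± 0.08 (adjusted p = 0.00227). FLNC fell in KO by 1.47 ± 0.18 (adjusted p = 4.55e-07) and rose in OE by 1.07 ± 0.15 (adjusted p = 2.22e-05). Both messages are long, and with the trend of length and GC removed the falls in KO were smaller, at -0.67 for FLNA and -0.84 for FLNC, and still passed. LAMP2, a lysosomal membrane protein, rose in KO to 352 ± 25.3 CPM against 193 ± 15.6 CPM in Control (log2 fold change 0.86 ± 0.08, adjusted p = 1.03e-08). SYNPO, a synaptopodin of the actin cytoskeleton, fell in OE to 10.4 ± 1.82 CPM against 20.2 ± 1.69 CPM in Control (-0.97 ± 0.17, adjusted p = 2.45e-04). SQSTM1, the autophagy receptor p62, was added after its values were seen. It had 174 ± 18 CPM in KO, 83.2 ± 1.63 CPM in OE and 116 ± 3.31 CPM in Control, a rise in KO of 0.59 ± 0.09 (adjusted p = 3.77e-06, and larger with the trend removed) and a fall in OE of 0.48 ± 0.09 (adjusted p = 2.99e-04).

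Of the heat shock factors HSF4 fell in KO, and HSF1 and HSF2 did not pass as fitted. HSF1, the main activator of heat shock genes, had 96.5 ± 5.88 CPM in KO, 99.2 ± 6.73 CPM in OE and 94.6 ± 3.58 CPM in Control. Its log2 fold change was 0.03 ± 0.09 in KO (adjusted p = 0.796), but 0.44 ± 0.08, which passed, with the trend of length and GC removed, and 0.07 ± 0.09 in OE (adjusted p = 0.654). HSF2 did not pass in KO (-0.06 ± 0.22, adjusted p = 0.836) or in OE (0.15 ± 0.21, adjusted p = 0.693). With the trend removed HSF2 was at -0.54 ± 0.23 in KO against Control (adjusted p = 0.0537). In KO against OE it was then at -0.66 ± 0.22, which passed (adjusted p = 0.0136). HSF4, best known from the lens, fell in KO to 0.818 ± 0.459 CPM against 4.21 ± 0.393 CPM in Control (-2.29 ± 0.42, adjusted p = 8.79e-05), on 3 to 12 counts a KO library. HSBP1, a small protein that binds HSF1, rose in KO to 194 ± 18.2 CPM against 98.4 ± 7.92 CPM in Control (0.98 ± 0.10, adjusted p = 2.87e-08). DEDD2 was the gene of this list that passed in OE (0.34 ± 0.12, adjusted p = 0.0446), and it lost the call with the trend removed, with no filter on low counts, and without any 1 of the 3 Control libraries, OE replicate 2 or OE replicate 3 (adjusted p 0.0410 to 0.161 over all alternatives).

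Of the 14 genes of the CCT chaperonin, which folds actin and tubulin, and of prefoldin, which delivers them, 10 rose in KO and 4 did not pass. With the trend of length and GC removed 7 rose and 1 fell, where 45.2% of all genes passed. PFDN5 rose to 210 ± 24.4 CPM in KO against 79.1 ± 8.40 CPM in Control (1.41 ± 0.13, adjusted p = 1.05e-08), and PFDN4 rose to 73.8 ± 3.53 CPM against 30.9 ± 2.64 CPM (1.26 ± 0.13, adjusted p = 5.62e-08). CCT4 rose in KO by 0.65 ± 0.08 (adjusted p = 7.13e-07) and CCT5 by 0.61 ± 0.09 (adjusted p = 2.31e-06). With the trend removed PFDN4 was at 0.64 and CCT4 at 0.24 in KO, and both still passed. In OE 3 of the 14 rose and 11 did not pass. CCT5 (0.28 ± 0.08, adjusted p = 0.0231) and PFDN2 (0.39 ± 0.13, adjusted p = 0.0299) were among them. The call for CCT5 was lost without Control replicate 2 or 3 or OE replicate 2 or 3 (adjusted p 0.00472 to 0.0961 over all alternatives), and that for PFDN2 without Control replicate 1 or 3 or OE replicate 1 or 3 (adjusted p 0.00477 to 0.215). PFDN2 in KO was at 0.09 as fitted and at -0.64 with the trend removed.

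Among exchange factors and partners of HSP70, 4 of 8 rose and 1 fell in KO, and 2 rose and 1 fell in OE. BAG1, a relative of BAG3 that also drives nucleotide exchange, had 112 ± 8.73 CPM in KO, 53.8 ± 6.05 CPM in OE and 86.9 ± 4.69 CPM in Control. It rose in KO by 0.37 ± 0.10 (adjusted p = 0.00219) and fell in OE by 0.69 ± 0.10 (adjusted p = 1.71e-05), the opposite signs to BAG3. BAG2, an inhibitor of the ubiquitin ligase STUB1, had 8.40 ± 0.996 CPM in KO, 8.32 ± 1.35 CPM in OE and 4.09 ± 0.438 CPM in Control, and rose in KO (1.04 ± 0.24 on the log2 scale, adjusted p = 8.77e-04) and in OE (2.03-fold, adjusted p = 0.00283). ST13, which stabilises HSP70 bound to its client, rose in KO by 0.53 ± 0.07 (adjusted p = 2.63e-06), and so did BAG4 by 0.57 ± 0.11 (adjusted p = 1.43e-04). BAG6, a chaperone of membrane proteins, fell in KO by 0.55 ± 0.08 (adjusted p = 9.14e-06). With the trend removed ST13 was at 0.20, BAG4 at 0.33 and BAG6 at -0.26 in KO, and all 3 still passed.

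Of 16 other J-domain genes, 4 rose and 5 fell in KO, and 1 rose and 2 fell in OE. DNAJC13, an endosomal protein, fell in KO to 41.6 ± 1.21 CPM against 101 ± 1.36 CPM in Control (-1.28 ± 0.11, adjusted p = 1.32e-09). DNAJA2 rose in KO by 0.48 ± 0.09 (adjusted p = 1.12e-04) and DNAJC21 by 0.39 ± 0.09 (adjusted p = 8.23e-04). DNAJC5, a protein of secretory vesicles, fell by 0.40 ± 0.08 (adjusted p = 1.50e-04), a call lost with the trend removed (-0.15), where DNAJA2 was at 0.29 and still passed. In OE, DNAJA4 rose to 24.7 ± 2.95 CPM against 13.7 ± 0.780 CPM in Control (0.85 ± 0.15, adjusted p = 2.04e-04) and DNAJB4 fell by 0.59 ± 0.11 (adjusted p = 3.86e-04).

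Of 14 tested genes of the HSP90 paralog and co-chaperones, 3 rose and 5 fell in KO, and 3 rose and 11 did not pass in OE. FKBP5, which tunes steroid receptors on HSP90, fell in KO to 574 ± 54.1 CPM against 902 ± 8.55 CPM in Control (-0.65 ± 0.08, adjusted p = 6.64e-07). CDC37, which brings kinases to HSP90, fell in KO by 0.39 ± 0.08 (adjusted p = 2.25e-04). PTGES3, the co-chaperone p23, rose in KO by 0.63 ± 0.09 (adjusted p = 2.04e-06) and in OE by 0.33 ± 0.09 (adjusted p = 0.00895), a call lost without Control replicate 2 (adjusted p 0.000662 to 0.0555 over all alternatives). FKBP4 rose in OE by 0.38 ± 0.09 (adjusted p = 0.00267). With the trend removed FKBP5 was at -0.43 and PTGES3 at 0.28 in KO, and both still passed. PPP5C, a phosphatase, fell in KO by 0.31 ± 0.09 (adjusted p = 0.00686), but was at 0.03 with the trend removed and lost the call without Control replicate 3 (adjusted p 0.00324 to 0.785 over all alternatives).

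Of 6 tested HSP70 and HSP110 relatives, 2 rose and 4 did not pass in KO, and 1 rose and 5 did not pass in OE. Neither rise in KO passed with the trend of length and GC removed, and no other of the 6 did. HSPA14, which acts at the ribosome, rose in KO by 0.88 ± 0.19 (adjusted p = 4.24e-04), a call lost with the trend removed (0.42). HSPA2, the HSP70 of the testis, rose in KO by 0.53 ± 0.21 (adjusted p = 0.0389) and in OE by 0.61 ± 0.20 (adjusted p = 0.0372). Both calls were fragile: that in KO was lost with the trend removed (adjusted p = 0.065), with no filter on low counts (adjusted p = 0.0607) and without Control replicate 1 or 2 or KO replicate 1 or 3 (adjusted p 0.0161 to 0.189 over all alternatives) and that in OE without Control replicate 1 or 2 or OE replicate 2 or 3 (adjusted p 0.0185 to 0.184). HSPA4L did not pass in KO (-0.12 ± 0.09, adjusted p = 0.279) or OE (-0.15 ± 0.09, adjusted p = 0.251), and HSPA12A did not pass in KO (-0.25 ± 0.19, adjusted p = 0.292, and at 0.42 with the trend removed). HSPA6, a strictly heat-inducible HSP70, had 0 counts in KO, 4 in OE and 0 in Control.

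Of 4 mitochondrial chaperones that heat shock also induces, 3 rose and 1 fell in KO. HSPD1 rose by 0.45 ± 0.08 (adjusted p = 3.07e-05), HSPE1 by 0.52 ± 0.13 (adjusted p = 0.00188) and GRPEL1 by 0.32 ± 0.11 (adjusted p = 0.0146), and HSPA9 fell by 0.24 ± 0.07 (adjusted p = 0.00755). With the trend removed HSPD1 alone of these 4 passed (0.22), and GRPEL1 also lost its call without Control replicate 2 or 3 or KO replicate 1 (adjusted p 0.00750 to 0.289 over all alternatives). In OE the 4 had adjusted p between 0.0839 and 0.986. Of 7 other small heat shock proteins 1 could be tested, HSPB11, listed under its current symbol IFT25. It acts in the transport system of cilia and rose in KO to 92.0 ± 7.19 CPM against 52.3 ± 5.89 CPM in Control (0.81 ± 0.10, adjusted p = 7.72e-07). The other 6 had at most 10 counts in a group.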

How the data were processed

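RNA of N/TERT keratinocytes was poly-A selected and read as pairs, per the labels' protocols. The deposited files hold whole-number counts of reads per gene, made by the authors with featureCounts 1.5.2 against Ensembl release 101 on GRCh38, per the file headers. The submitters' processing notes name FastQC, HISAT2 1.03, Subread, featureCounts 0.1.0 and DESeq2. The counting command sets no option for pairs, strand, multi-mapping or overlapping genes. Under these defaults each mate counts as a read and strand is ignored. Reads that map to several places, or that overlap exons of more than 1 gene, are left out. Columns of other series numbered 0.

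From the counts, edgeR 4.0.16 (R 4.3.3) gave the tests, and DESeq2 1.42.0 was an alternative. filterByExpr with a minimum count of 10 and TMM factors were applied. A quasi-likelihood fit on the group used all 9 libraries, with two-sided tests and Benjamini-Hochberg adjustment over 13390 genes. Log2 CPM for correlations used a prior count of 2. In an alternative fit, a loess surface (span 0.3) of each library over log2 exon length and GC content (known for 99.6% of tested genes, from GENCODE release 29) served as an offset. It is called the trend of length and GC. On data simulated for KO against Control over 13390 genes, the test recovered 94% of 100 genes changed 2-fold and 71% of 100 changed 1.5-fold. It made 7 false calls among 172. The changed genes were a small part of all genes, excluded those at low levels and moved equally often up and down. No trend of length and GC was simulated. The rates therefore need not hold for the KO libraries or for genes at low levels.

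Total counts were 6317564 to 13330479 a library, and 3 counts in a library, taken as the floor, equalled 0.219 to 0.507 scaled CPM. Reads are not independent molecules, so this covers counting error only. Replicate pairs differed beyond sampling noise (chi-square per degree of freedom 2.74 to 6.68, and 11.1 and 11.9 for the pairs with OE replicate 3).

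The members, the other gene lists and the markers were chosen with earlier results of these data known. Besides the members and SGPL1, the genes named are, per list, up to 4 with the smallest p in KO against Control and up to 2 in OE against Control, every measured heat shock factor, and the 5 genes most correlated with HSPB8. A gene that this rule names is counted in its list but not reported here. Promoter sequences are from RefSeq on GRCh38.p14.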

Additional observations from a re-analysis of the deposited data

How the results depend on the processing

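Under the alternatives (DESeq2 size factors or Wald test, upper quartile scaling, no filter, fits of the groups compared, the trend of length and GC, a replicate block and single libraries left out), the log2 fold changes of the 10 heat shock genes kept their sign in 138 of 141 cases for KO against Control, 141 of 141 for OE against Control and 136 of 141 for KO against OE. The exceptions were values near 0, of HSPB1, HSPA8 and DNAJB1. Over the libraries left out in turn, 6056 to 6514 genes passed in KO against Control, 1729 to 2466 in OE against Control and 6893 to 7651 in KO against OE, as compared with 6951, 2493 and 7711 with all libraries. Of the other chaperone genes, 43 to 48, 13 to 23 and 50 to 57 passed in these comparisons, against 51, 20 and 55. The lowest OE count, 13, was that without Control replicate 1. No other of these totals moved by over 1.5 times, but the 14 that rose in OE were 8 or 9 without Control replicate 1, 2 or 3 or OE replicate 2 or 3.

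The numbers in the titles were not used to pair libraries in the main fit. Deviations of libraries with the same number from their group means correlated between -0.0772 and 0.066. Values this near 0 cannot settle whether such libraries were prepared together. With the number as a replicate block, 6907, 2468 and 7669 genes passed, and 50, 21 and 55 of the other chaperone genes.

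With the trend of length and GC removed, signs turned for 18 of the 83 other chaperone genes in KO against Control (6 had passed as fitted, 2 others passed then), 4 in OE against Control (0 and 0) and 15 in KO against OE (3 and 5). Of the genes named by rule that passed in either fit, without and with that block, these were PFDN2 in KO against Control (-0.64 and -0.63, which then passed) and PPP5C (0.03 and 0.04). In KO against OE they were HSF1 (0.42 and 0.42, which then passed), HSPA12A (0.07 and 0.07) and PTGES3 (-0.01 and -0.01). Whether that trend belongs to the libraries or to the cells was not tested. HSPB8 and CRYAB in OE and HSF4 in KO rest on few counts, which limits their folds.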
